A study of Mus musculus with 6 samples.

Results

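The passenger strands of the let-7 family are the 3p arms of the let-7 hairpins. 6 of them, mmu-let-7b-3p, mmu-let-7d-3p, mmu-let-7e-3p, mmu-let-7f-1-3p, mmu-let-7g-3p and mmu-let-7i-3p (written below without the species prefix), were followed by name among the 1881 mouse miRNAs on the arrays, each beside the 5p arm of its own hairpin. They were selected on their detection calls and probe signals in the comparison of both cell types, so those values are given as a description without a test. MiRNA was measured on 1-colour Agilent arrays in bone marrow endothelial cells of wild-type C57BL/6 mice aged 1 month, with 3 arrays of CD31hiEmcnhi (type H) cells and 3 arrays of CD31loEmcnlo (type L) cells. Type H and type L name capillary endothelium of bone that stains strongly or weakly for the surface proteins CD31 and endomucin (Emcn), and type H vessels are known for their association with osteoprogenitors. Neither group carried a transgene, a deletion or a drug treatment. According to the sample labels, the sorted cells of both groups were grown on fibronectin in endothelial growth medium before RNA was extracted, and the mice were male. The methods do not mention culture for the arrays and give female mice. The labels call the 3 samples of each group biological replicates without saying whether they came from separate animals, so the spread between them may be technical.

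An array reports a miRNA as detected or not, and in these files a miRNA was detected when the total of at least 1 of its probes reached 3 times that probe's error. A type H array gave 263 to 281 detected miRNAs and a type L array 295 to 309. Each cell type had a slide of its own, and the effects of slide and of cell type cannot be told apart. The 9 control sequences that were detected all had more signal in type H, with log2 differences of 0.21 to 1.47, and the part of this in the differences below was not tested. The labelled cell type was checked with marker miRNAs. Both arms of miR-126a, the defining endothelial miRNA, were detected on 0 of the 6 arrays, and so were all 6 haematopoietic markers, whereas 5 of 6 stromal or mural markers were detected on every array, with a summed signal of 808 to 1026 in type H and 703 to 809 in type L samples. The endothelial label was therefore not borne out by these markers, and the part of this in the results was not tested.

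A let-7 hairpin is cut by Dicer into a duplex of 2 short RNAs. The 5p arm is usually kept by an Argonaute protein as the guide and finds target mRNAs through its seed, bases 2 to 8 from the 5′ end, while the 3p arm, the passenger, is usually degraded. The let-7 guides are known for their rise with differentiation and for repressing genes of growth and pluripotency. In endothelium they are abundant miRNAs.

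All 6 passenger strands and their guides were matched by name to RefSeq mature sequences (GRCm38.p6). The sequences of the passengers are shown because the 2 strands that were detected are close relatives, with the seed in capitals.

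let-7b-3p: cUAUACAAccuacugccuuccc
let-7f-1-3p: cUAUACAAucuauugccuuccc
let-7d-3p: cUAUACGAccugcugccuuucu
let-7e-3p: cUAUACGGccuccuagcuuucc
let-7i-3p: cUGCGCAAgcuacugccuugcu
let-7g-3p: aCUGUACAggccacugccuugc

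The 6 passengers carried 5 different seeds, and the only seed shared among them was UAUACAA of let-7b-3p and let-7f-1-3p. These 2 strands were identical at 20 of 22 positions, more than any other pair of the 6. let-7b-3p and let-7d-3p were identical at 18 positions, and let-7g-3p matched the other strands at only 4 to 6. Near the 3′ end, 5 of the 6 passengers held the letters UGCCUU on the strand as printed and let-7e-3p did not, against 26 of 1679 mature mouse miRNAs in the RefSeq table (1.55%). The guides are shown for contrast, since their seed is common to the family.

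let-7b-5p: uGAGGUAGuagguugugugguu
let-7f-5p: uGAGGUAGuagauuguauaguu
let-7d-5p: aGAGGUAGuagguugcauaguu

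The seed GAGGUAG was carried by 10 of the 22 let-7 and miR-98 names on the array. The hairpins lie at several places in the genome. let-7b-3p is encoded at chr15:85707379-85707400 on the plus strand, within the span of the long non-coding RNA gene Lncppara, with the let-7c-2 hairpin 621 bases away. let-7f-1-3p lies at chr13:48537833-48537854 on the minus strand, in a run of 3 hairpins (let-7d, let-7f-1 and let-7a-1) from chr13:48536012-48538272 that no annotated gene of the table spans. let-7d-3p lies in the same run at chr13:48536024-48536045. let-7e-3p lies at chr17:17830411-17830432 within the span of the protein-coding gene Spaca6, and let-7g-3p at chr9:106178902-106178923 within the span of Wdr82. let-7i-3p lies at chr10:122985642-122985663 on the minus strand and had no spanning gene. Whether these positions are exonic or intronic is not given in the table used.

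Each passenger was read through 4 probes, all of them exact complements of its 3′ end. The longest probe of the 3 strands with the highest ratio of signal to error is shown, with the complement of UGCCUU in capitals.

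let-7b-3p probe: gggAAGGCAgtaggtt
let-7f-1-3p probe: gggAAGGCAatagattgtat
let-7e-3p probe: ggaaagctaggaggccg

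The probes of let-7b-3p were 13 to 16 bases long, and those of let-7f-1-3p 17 to 20 bases. The first 9 bases, GGGAAGGCA, were common to all 8 probes of these 2 strands, and no other miRNA among the 4415 probes on the array had a probe starting with them. The files do not show how much of the signal on the probes of one strand came from the other.

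2 of the 6 passenger strands, let-7b-3p and let-7f-1-3p, were detected on 3 of 3 type H and 0 of 3 type L arrays, and the other 4 were detected on no array. Of all 1881 miRNAs, 19 (1.01%) had this pattern of detection, the one by which these 2 strands came to be followed. Signals are given as the sum of a miRNA's probe totals, an intensity after background subtraction that can fall below 0. For let-7b-3p the sums were 5.56, 5.32 and 4.48 on type H arrays and 2.68, 2.90 and 2.76 on type L arrays, with means of 5.12 ± 0.57 and 2.78 ± 0.11 (SD, n = 3 each). Every type H array lay above every type L array. In cell samples of this kind, fewer cells carrying a miRNA and less of it per cell cannot be told apart.

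For let-7f-1-3p the sums were 6.06, 5.97 and 5.08 on type H arrays and 2.61, 2.72 and 2.37 on type L arrays, with means of 5.70 ± 0.54 and 2.56 ± 0.18 (SD, n = 3 each). Here too the groups did not overlap, and the third type H array was the lowest of its group, as it was for let-7b-3p. The same held for guides such as let-7b-5p, though not for let-7f-5p, so this order is not particular to these strands. Among all 1881 miRNAs, 40.4% had every type H sum above every type L sum and 25.3% had the opposite order, so a lack of overlap in the direction of type H was common on these arrays.

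let-7e-3p had sums of 1.90, 1.19 and 1.43 on type H arrays and 0.57, 0.91 and 0.48 on type L arrays. It was not detected, but its groups did not overlap either. let-7d-3p ran the other way, with 1.02, 1.08 and 0.56 in type H against 1.55, 1.21 and 1.60 in type L samples, again below detection. let-7i-3p (0.33, 0.32 and 0.18 against 0.14, 0.36 and -0.15) and let-7g-3p (-0.35, -0.03 and -0.25 against -0.24, -0.17 and -0.56) overlapped between groups and lay around 0. Among the 1533 miRNAs detected on no array, the difference of means between type H and type L had a median of 0.27 intensity units and a 5th to 95th percentile range of -1.20 to 1.47, and 42.5% had every type H array higher. The differences of let-7e-3p (0.85) and let-7d-3p (-0.56) lie inside that range. Of the other let-7 and miR-98 names detected on no array, miR-98-3p (1.90), let-7j (-1.69) and let-7k (-2.96) lie outside it, and the rest inside.

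**Figure D1:**
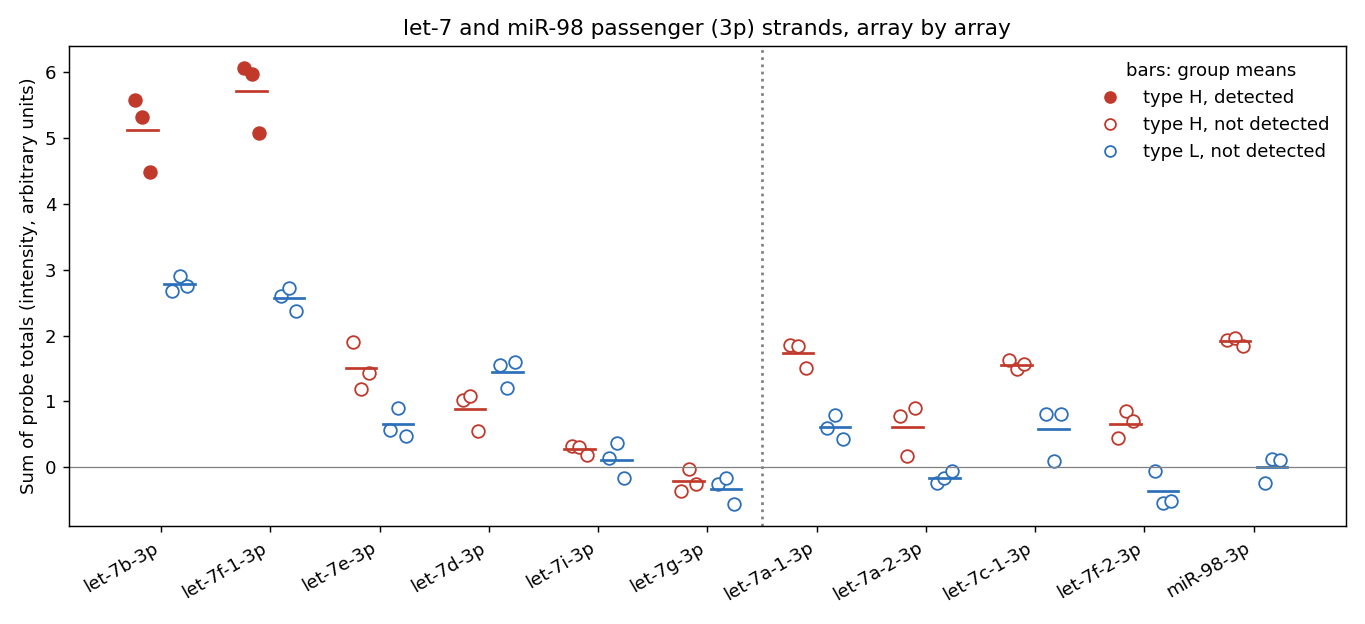
Sum of probe totals (intensity, arbitrary units, linear axis from below 0) of the 6 passenger strands and, right of the dotted line, of the 5 other let-7 and miR-98 3p arms, with 1 point per array and bars at group means. Filled points are arrays on which the strand was detected: only let-7b-3p and let-7f-1-3p on type H arrays are filled, and the type H points of both lie above 4 while their type L points lie below 3.

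The other 3p arms on the array were let-7a-1-3p, let-7a-2-3p, let-7c-1-3p, let-7f-2-3p and miR-98-3p, which were detected on no array. All 5 had every type H sum above every type L sum. let-7a-1-3p, which also carries the seed UAUACAA and lies 261 bases from the let-7f-1 hairpin, had means of 1.74 in type H and 0.61 in type L samples. miR-98-3p, with the same seed, had means of 1.91 and 0.0052. Over the 11 3p arms, 8 had type H above type L without overlap, 1 the reverse (let-7d-3p) and 2 overlapped, beside the 40.4% and 25.3% given above for the whole array.

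The detection of both strands was close to its threshold. The 4 probes of let-7b-3p reached 3.02 to 3.96 times their error on the type H arrays and 1.28 to 2.39 times on the type L arrays. Those of let-7f-1-3p reached 3.44 to 4.12 times in type H and 1.20 to 2.58 times in type L samples. All 8 probes were higher on each type H array than on any type L array, although the probes of 1 strand overlap in sequence and are not independent. Few spots were flagged as well above background: 1, 3 and 3 of 30 for let-7b-3p and 1, 6 and 4 of 30 for let-7f-1-3p on the type H arrays, and 0 for either strand on the type L arrays. Across all miRNAs on all arrays, the highest ratio of a miRNA called undetected was 2.996 and the lowest of one called detected 3.002.

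The longest probe of let-7e-3p stopped just short of the threshold, with 2.67 to 2.97 times its error in type H and 1.20 to 1.66 times in type L samples. Its shorter probes lay lower, and the 15-base probe overlapped between groups. The highest ratio for let-7d-3p was 1.65 in type H and 1.73 in type L samples. For let-7i-3p and let-7g-3p no probe went above 0.93 on any array.

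**Figure D2:**
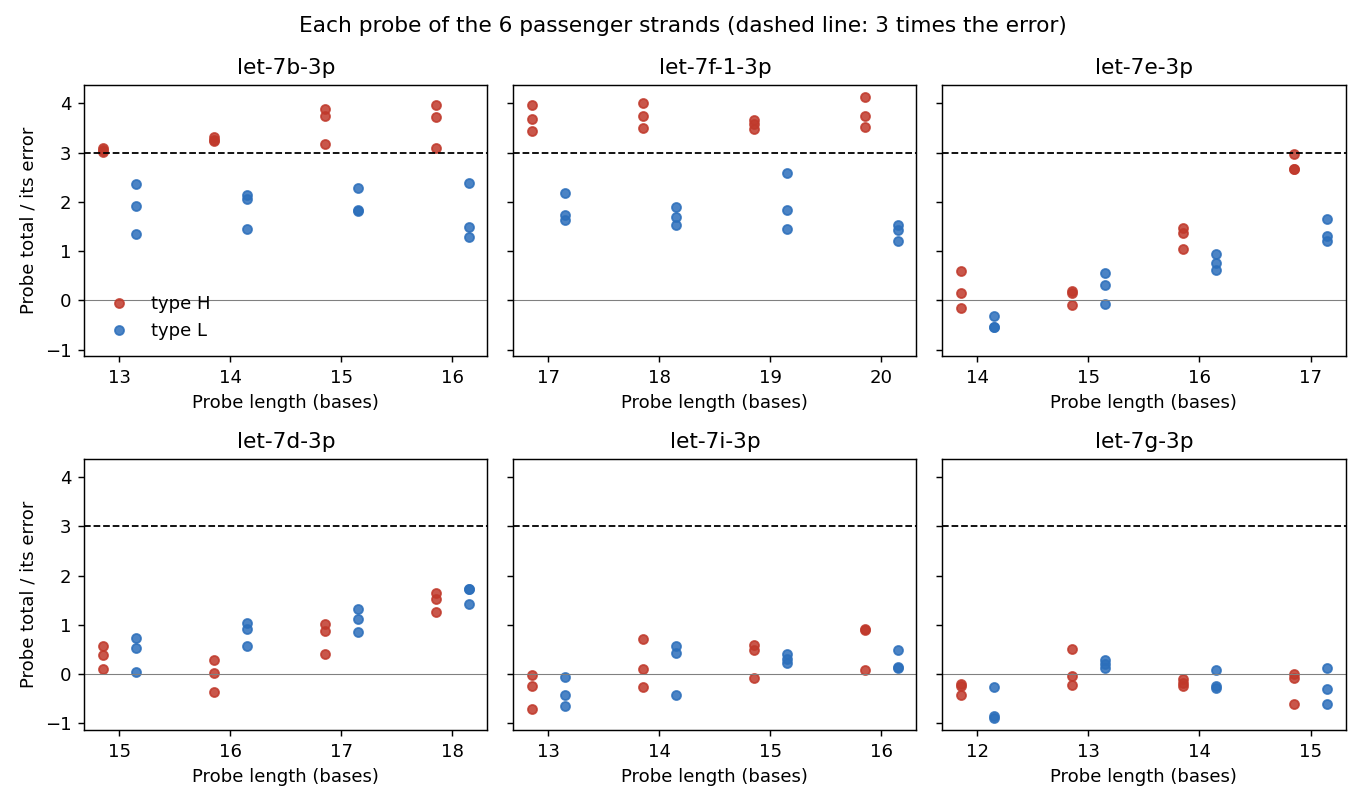
Ratio of each probe's total to its error on every array, by probe length in bases, for the 6 passenger strands, with the dashed line at 3. All probes of let-7b-3p and let-7f-1-3p lie above the line in type H and below it in type L samples, the longest probe of let-7e-3p peaks at 2.97, and the other strands stay below 2.

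To compare sizes between arrays, the sums of all 1881 miRNAs were quantile normalized, floored at 1 and put on a log2 scale. On this scale let-7b-3p had 2.55, 2.66 and 2.55 in type H and 1.27, 1.48 and 1.33 in type L samples. Its mean was 2.58 ± 0.06 against 1.36 ± 0.11 (SD, n = 3 each), a difference of 1.22. Because let-7b-3p was detected on no type L array, its level there is uncertain. Set against its measured type L signal, it was 2.33-fold higher in type H on the quantile-normalized scale. That fold makes no allowance for the error of the undetected signal, so it is neither exact nor a lower limit. It holds for this scaling only: with no normalization the log2 difference was 0.88 and under 75th percentile scaling 0.78.

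let-7f-1-3p had 2.66, 2.86 and 2.69 in type H and 1.25, 1.36 and 1.13 in type L samples on the same scale. Its mean was 2.73 ± 0.11 against 1.24 ± 0.11 (SD, n = 3 each), a difference of 1.49. Against its measured type L signal it was 2.81-fold higher in type H on this scale, with the same limit as for let-7b-3p. No normalization gave a log2 difference of 1.15 and 75th percentile scaling 1.05. The other 4 strands were below detection in both cell types and have no fold. The filter of the methods, which keeps a miRNA that either cell type shows on its full set of arrays, kept 311 miRNAs, 2 of the 6 strands among them. Both passed through type H alone and so had to differ, and 45.7% of the 311 had every type H value above every type L value on this scale. Quantile normalization left the 231 miRNAs detected on all arrays 0.11 higher in type H at their median. Relative to that median let-7b-3p was 1.12 and let-7f-1-3p 1.38 higher, and relative to the medians of -0.22 under 75th percentile scaling and -0.12 with no normalization the differences were 0.99 and 1.27 under either. Normexp correction with an offset of 50 brought the differences of both strands to 0.12 and 0.17. From the deposited totals per miRNA the differences were 2.61 and 2.72, and with the authors' log2 values they were 5.93 and 6.07. Undetected miRNAs carry a low constant in both. The deposited totals were also floored at 1 here and the authors' values were not, so 2.61 and 2.72 depend on that floor.

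The 5p arms of the same 6 hairpins are the reference for the passengers. They were tested along with let-7a-5p, let-7c-5p and miR-98-5p, the other guides of the family, and all 9 were detected on all 6 arrays. Of these 9, 5 rose in type H (let-7a-5p, let-7b-5p, let-7d-5p, let-7f-5p and miR-98-5p), 1 fell (let-7g-5p) and 3 did not pass the test, by limma with Benjamini-Hochberg adjustment over the 311 miRNAs at 0.05. Over all 311, 86.8% passed, 44.7% higher and 42.1% lower in type H, beside 6 of 9 guides passing and 5 of 9 higher, and nothing particular to the guides is read from these counts. Their median difference was 0.23, beside 0.03 over all miRNAs tested and 0.11 over the 231 that, like the guides, were detected on all arrays.

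let-7b-5p, the guide of let-7b, had sums of 1617, 1353 and 1234 on type H and 1018, 1133 and 1164 on type L arrays. It was higher in type H by 0.34 ± 0.03 on the log2 scale (SE, limma adjusted p = 7.7e-05). Its groups did not overlap, as those of its passenger did not. let-7d-5p had 312, 256 and 240 against 171, 195 and 202 and was higher by 0.50 ± 0.04 (SE, limma adjusted p = 5.7e-05), while its passenger let-7d-3p was below detection.

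let-7f-5p, which can come from the let-7f-1 or the let-7f-2 hairpin, had sums of 344, 269 and 269 on type H and 236, 268 and 293 on type L arrays. Its sums overlapped, and after normalization it was higher by 0.23 ± 0.05 (SE, limma adjusted p = 0.0066). let-7a-5p was higher by 0.31 and miR-98-5p, the X-linked relative of let-7, by 0.46 (limma adjusted p = 0.00055 and 0.0028). let-7g-5p was lower by 0.13 (limma adjusted p = 0.020), which was lost in 5 alternatives and turned in 1. let-7c-5p (0.12), let-7e-5p (0.09) and let-7i-5p (-0.04) did not pass. After quantile normalization, let-7a-5p to let-7f-5p each had an identical value on the 3 type H arrays, because their ranks were identical, so the spread within type H was 0 for these 6 guides. Their standard errors and p-values therefore leave out the spread of their sums between type H arrays. With no normalization let-7b-5p was higher by 0.34 and let-7d-5p by 0.50 (limma adjusted p = 0.022 and 0.00052). With no normalization 2 guides passed and with the deposited totals 3. miR-98-5p was 0.021 under 75th percentile scaling and 0.12 with no normalization (limma adjusted p = 0.78 and 0.43). let-7f-5p was 0.042 and 0.14 under these settings (limma adjusted p = 0.53 and 0.35), and let-7b-5p was 0.032 with normexp correction (limma adjusted p = 0.26). let-7a-5p changed sign under 75th percentile scaling (-0.025) and was lower with normexp correction (-0.17, limma adjusted p = 0.024), and let-7g-5p was 0.0070 with that correction. The let-7a-5p call was also lost with no normalization (0.075) and with the deposited totals (0.27, limma adjusted p = 0.62 and 0.053). In the authors' table let-7a-5p was 0.0054 and let-7b-5p 0.20 (limma adjusted p = 0.96 and 0.083).

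The type H minus type L difference of each detected passenger was set beside that of its guide. The passenger's difference is taken against type L signal below detection and was fixed in direction by the choice of the strands, so the gap between the arms is a description on the normalized scale and not an exact value. For let-7b the passenger differed by 1.22 and the guide by 0.34, a gap of 0.88. For let-7f-1 the passenger differed by 1.49 and the guide by 0.23, a gap of 1.26, where the guide may also come from let-7f-2. Over the 15 alternatives run the gaps ranged from 0.09 to 5.72 for let-7b and from 0.10 to 5.85 for let-7f-1. The low ends came from normexp correction and the high ends from the authors' table, while 75th percentile scaling gave 0.54 and 1.01.

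Gaps between arms were common on these arrays. Over the 33 hairpins with both arms tested, 18 had a 3p arm that gained on its 5p arm in type H, with a median gap of 0.08 and quartiles of -0.44 and 0.70. 4 other hairpins had a gap above that of let-7f-1, and 5 others above that of let-7b. Among the 19 miRNAs detected on every type H and no type L array, 13 (68.4%) were 3p arms by name, and let-7b-3p and let-7f-1-3p were 2 of these. By comparison, 3p arms made up 41.7% of all 1881 miRNAs, 36.7% of the 311 past the filter, and 28.6% of the 42 miRNAs with the opposite pattern of detection. Outside the let-7 family a 3p arm can be the guide. The arms in these sets were taken by name and were not sorted into guides and passengers.

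**Figure D3:**
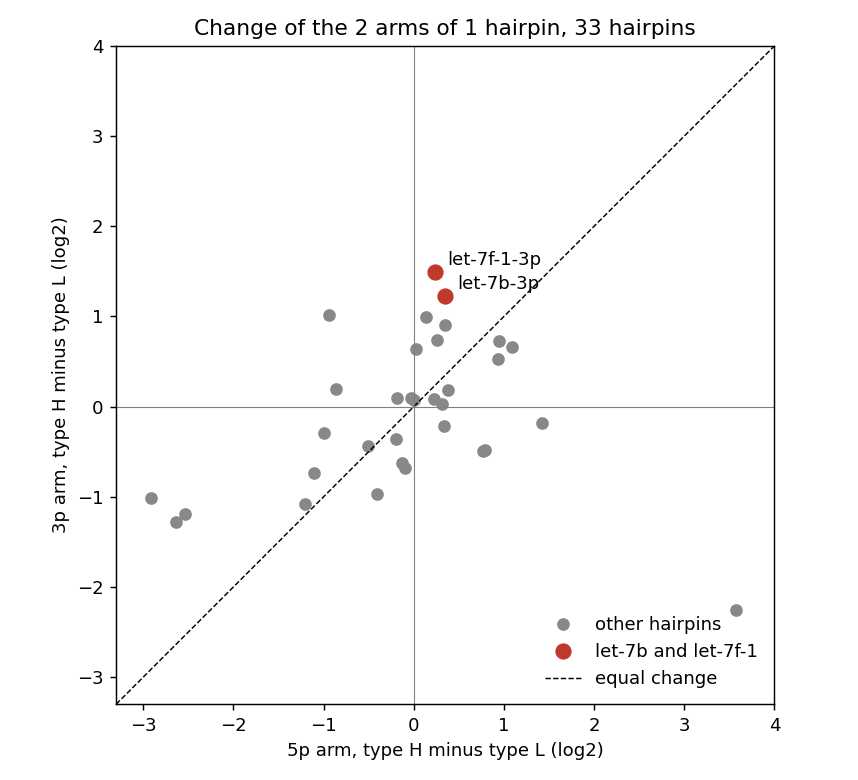
Difference between type H and type L (log2, means of 3 arrays each) of the 3p arm against that of the 5p arm for 33 hairpins with both arms tested, with a dashed line at equal change. let-7b (0.34, 1.22) and let-7f-1 (0.23, 1.49) lie above the line, and the remaining hairpins scatter on both sides of it.

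Several let-7 hairpins lie next to other miRNAs in the genome. Of 13 such partner arms on the array (miR-98, itself a let-7 relative, and miR-99a, miR-99b, miR-100, miR-125a and miR-125b), 9 passed the filter, and 2 of these rose and 6 fell in type H, beside the 86.8% of all tested miRNAs that passed. The 6 that fell include miR-125b-2-3p, which passed the filter through type L alone, so its call was fixed by the filter. With only miRNAs detected on all 6 arrays tested, 7 partners passed. miR-98-5p, which rose, is also counted with the guides above. The partners of let-7e, miR-99b and miR-125a, did not move together: miR-99b-5p was higher by 0.23 (limma adjusted p = 0.00097), whereas miR-125a-5p was lower by 0.10 and its 3p arm miR-125a-3p by 0.68 (limma adjusted p = 0.020 and 2.7e-05). The miR-125a-5p call was lost in 6 alternatives, among them each type H array left out (limma adjusted p = 0.058 to 0.10) and the replicate block (0.062), and the miR-125a-3p call was lost with the deposited totals (0.35). miR-99b-3p differed by 0.08 and did not pass, and it was lower by 0.49 under 75th percentile scaling.

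The tested partners of the let-7a-2 and let-7c-1 hairpins (miR-100, miR-99a and miR-125b) were lower in type H after quantile normalization. miR-100-5p differed by -0.15, miR-99a-5p by -0.31 and miR-125b-5p by -0.40 (limma adjusted p = 0.0063, 0.00031 and 2.0e-05). With no normalization, relative to the median of the miRNAs detected on all arrays, they differed by -0.0044, -0.23 and -0.23. 75th percentile scaling gave the same relative values. The miR-100-5p call was lost in 1 alternative. miR-125b-2-3p, a passenger strand like the members, was detected on 3 of 3 type L and 0 of 3 type H arrays. Its normalized mean was 1.19 in type H and 2.16 in type L samples. Against its measured type H signal it was 1.96-fold lower in type H on this scale, a fold that is not a lower limit. It passed the filter through type L alone and so had to differ, and no test is given. Its guide miR-125b-5p was lower as well in type H.

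**Figure D4:**
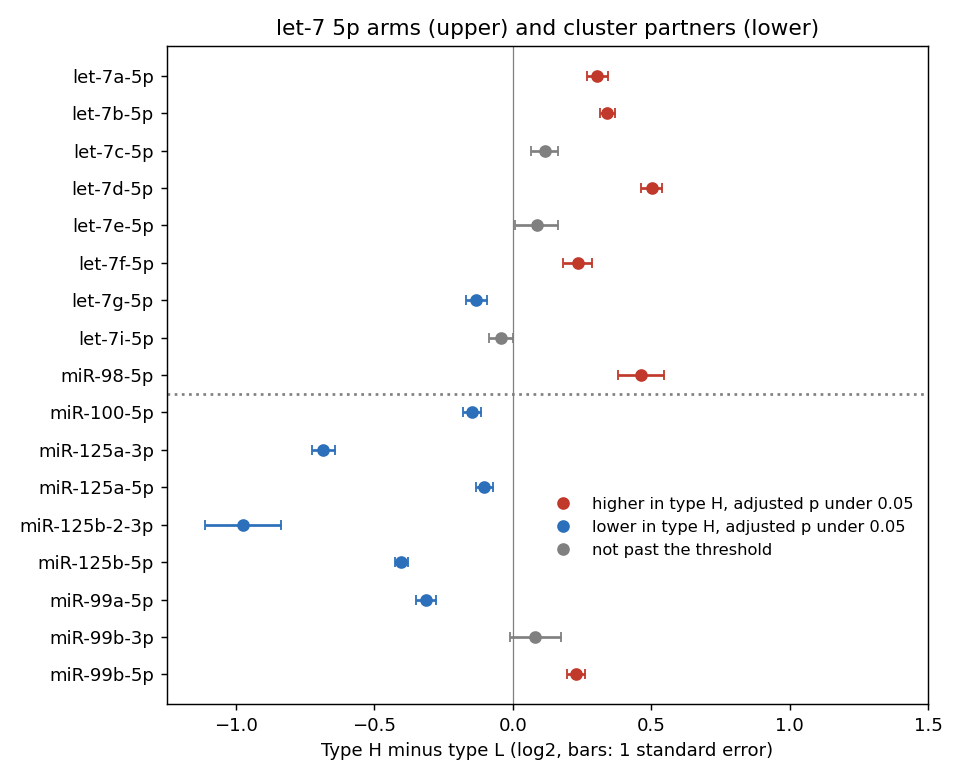
Difference between type H and type L (log2) with 1 standard error from the limma fit for the 9 guides of the let-7 family, above the dotted line, and 8 cluster partners below it (miR-98-5p is drawn once, with the guides). The guides lie between -0.13 and 0.50, and the partners between -0.97 and 0.23. The partner at -0.97, miR-125b-2-3p, passed the filter through type L alone, so its call was fixed by the filter.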

How the data were processed

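The authors scanned the arrays and extracted, with Agilent Feature Extraction 10.7.1.1, an intensity for each spot, a total per probe with its error and a total per miRNA. The deposited intensities were not normalized between arrays. A further file of the authors holds log2 values that the methods call quantile normalized. Each array held 1 sample. The members and lists were chosen with earlier results of these data known. The signal of a miRNA was the sum of its distinct probe totals. On each array 66 to 85 miRNAs had a deposited total more than 2% above that sum, but all 60 detected let-7 and miR-98 totals equalled it within a relative tolerance of 0.0001. Sums were quantile normalized over 1881 miRNAs, floored at 1 and put on the log2 scale. The filter and normalization follow the methods. limma 3.58.1 in R 4.3.3 (lmFit, eBayes) compared the cell types over 311 miRNAs, and was tested on simulated data. Where a group had no array with detection, the fold was taken against a substitute signal. Per array this was the higher of its own signal and the lowest signal of a detected miRNA. The error of that signal is not allowed for, so the fold is not a lower limit.

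Named miRNAs were the 6 passenger strands, the other let-7 and miR-98 3p arms, the let-7 5p arms with miR-98-5p, the partners past the filter and, for members detected on all 6 arrays, the miRNAs of nearest profile; no member was, so none was named. Alternatives changed the signal, its background correction, the scaling between arrays, the floor, the filter and the test, used the replicate number as a block or left out each array. The labels describe labelled cRNA, the methods labelled small RNA. No spot was saturated, and the number of arrays limits the precision. Sequences and positions came from RefSeq tables, and probe sequences from the deposited files.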

Additional observations from a re-analysis of the deposited data

How the results depend on the processing

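The number of passenger strands detected and not overlapping between cell types was 2 under all 16 alternatives run, but it rests on the detection calls that chose the strands, which no alternative changes, and says nothing about stability. The differences ranged from 1.18 to 1.27 for let-7b-3p and from 1.42 to 1.55 for let-7f-1-3p with 1 array left out. Without normalization they were 0.88 and 1.15, and the gaps 0.54 and 1.01. The number of guides past the threshold was 6, and was 5 to 7 with 1 array left out, 2 with no normalization and 3 with the deposited totals. The cause was not tested. The number of partners past the threshold was 8, miR-125b-2-3p with its call fixed by the filter among them, and 7 to 8 with 1 array left out. Over all miRNAs 270 passed, and 261 to 272 did with 1 array left out. With no filter on detection 466 of 712 passed, where miRNAs with no spread within either group were left out. Of all calls, 51.5% were higher in type H, against 35.8% under 75th percentile scaling and 40.3% with no normalization.

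Some guides and partners changed sign. let-7a-5p was -0.025 under 75th percentile scaling and -0.17 with normexp correction. let-7e-5p was -0.0093 with the deposited totals and -0.070 in the authors' table. let-7g-5p was 0.0070 with normexp correction. let-7i-5p was 0.014 under 75th percentile scaling and 0.11 with no normalization. miR-99b-3p was -0.49, -0.39, -0.42 and -0.027 under 75th percentile scaling, no normalization, the deposited totals and normexp correction.

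Same-numbered arrays shared little deviation from their group means: their correlations over 231 miRNAs were -0.01, -0.03 and 0.12. These values cannot show whether same-numbered samples came from the same animals or sort. With the replicate block, 262 miRNAs, 6 guides and 7 partners passed, and miR-125a-5p no longer did. Signal over background limits the passengers, and both detected strands stayed within 4.12 times their error.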

Other observations

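let-7j and let-7k, 2 family names without an arm, were detected on no array. Both had every type L sum above every type H sum, the opposite of most 3p arms: means were 1.35 in type H and 3.04 in type L samples for let-7j, and -0.11 and 2.84 for let-7k. The probes of let-7k, which carries the guide seed GAGGUAG, reached at most 2.71 times their error in type L and 0.42 times in type H samples. Of all 1881 miRNAs, 25.3% had type L above type H without overlap.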
